A study of Mus musculus with 20 samples.

Results

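The left ventricles of 4 mice fed pitavastatin were compared with those of 4 control mice, which makes 8 of the 20 arrays of a study of statins in the normal mouse heart. The arrays were taken by their labels and no array was left out. Pitavastatin calcium was given at 4.5 mg/kg/day, as powdered Livalo tablets mixed into the food, and the controls ate the same standard chow (CE-2) without a drug. The other 12 mice, 4 in each group, ate pravastatin at 21.0, rosuvastatin at 10.9 or atorvastatin at 11.4 mg/kg/day. All were wild-type male C57BL/6J mice received at an age of 6 weeks, left to settle for 2 weeks and then treated for 4. The labels name no disease model, the tissue was the whole left ventricle with all its cell types, and a single dose and a single time were sampled.

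Statins block the reductase step at which cells commit to making mevalonate, the precursor of cholesterol, of the isoprenoid tails that anchor many signalling proteins to membranes, of coenzyme Q and of dolichol. When a cell senses too little sterol, the transcription factor SREBP2 (gene Srebf2) is released to the nucleus and raises the genes of cholesterol synthesis. In mice this response to statins is best known from the liver, the main organ that takes up these drugs. The comparison asked how the transcripts of the heart stood under pitavastatin, gene by gene and pathway by pathway.

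RNA of each mouse was amplified from 100 ng and hybridised to 1 Affymetrix array, and the deposited value of a probe set is its MAS5 signal. All levels below are log2(signal + 16), and a difference is pitavastatin minus control on that scale, which understates the change of dim probe sets. Cardiomyocyte RNA was abundant on every array, with Myl2, the ventricular light chain, between 15.42 and 15.56 in the pitavastatin hearts and between 15.22 and 15.50 in the control hearts. The arrays of both groups were about equally bright. The log2 median signal was 6.51, 6.52, 6.33 and 6.70 in pitavastatin mice 1 to 4, against 6.61, 6.33, 6.39 and 6.90 in control mice 1 to 4 (exact permutation p = 0.771, adjusted p = 0.971 over 6 array measures, two-sided). The other measures, which were the share of dark probe sets, the interquartile range, the 3′ to 5′ signal ratios of the Gapdh and Actb controls and the 18S signal, had the same adjusted p of 0.971 by that test, whose smallest possible p is 0.0286. The brightness of the array nevertheless separated single mice, since the first principal component of all 20 arrays correlated with the median signal at r = 1 as a description. Control 4 was the brightest of the 8 arrays, and control 1 had the lowest weight among them (0.483) when arrays were weighted by their fit.

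Transcripts of the atrial light chains were high in 2 of the ventricular samples. Myl7, the atrial regulatory light chain, was at 4.79, 10.29, 5.45 and 5.20 in pitavastatin mice 1 to 4, against 8.29, 4.26, 6.09 and 5.88 in control mice 1 to 4. Pitavastatin 2 and control 1 thus stood well above the other 6 hearts. Myl4, the atrial essential light chain, followed with 9.21, 11.73, 8.74 and 8.99 in pitavastatin hearts and 10.30, 8.72, 8.66 and 9.30 in control hearts. Sln, the atrial calcium pump inhibitor sarcolipin, was at 8.48 in pitavastatin 2 by 1 probe set and between 4.46 and 6.23 in the other 7 hearts. Of 8 atrial marker genes, 4 were bright enough to be tested and all 4 had a mean above control, with a median difference of 0.397, which was −0.001 without pitavastatin 2. The mean level of these 4 genes was 9.13, 10.21, 8.90 and 9.16 in pitavastatin hearts, against 8.94, 8.95, 9.02 and 9.22 in control hearts. Control 1 was thus high in Myl7 and Myl4 but had the lowest mean of the controls over these 4 genes. Stard10, another of the 4, differed by 0.43, and by −0.04 without control 1. The fat cell hormone gene Adipoq, below the filter on brightness, was at 6.96 in pitavastatin 2 and between 4.80 and 5.44 in the other 7 hearts. The 3 adipocyte markers that were tested did not follow it. Their mean level was 8.31, 8.19, 8.24 and 7.95 in pitavastatin hearts and 8.04, 8.45, 8.50 and 8.07 in control hearts. The part of atrial tissue in the results below was not tested, and values without pitavastatin 2 or control 1 are given for some of the lists and genes that lean on these arrays.

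**Figure D1:**
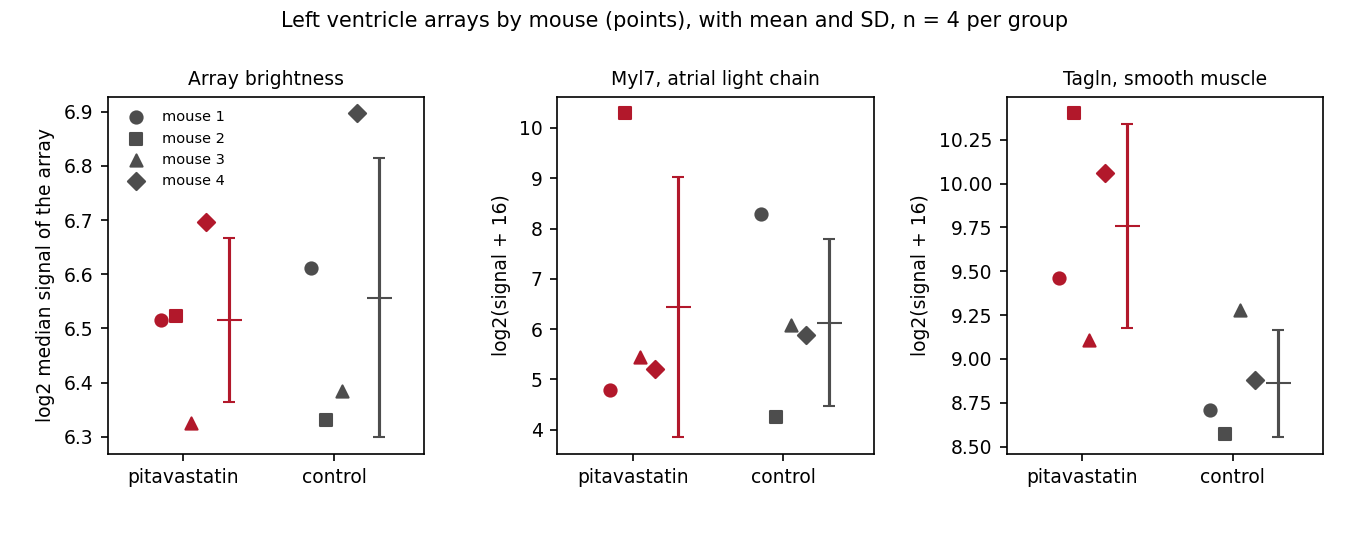
Points are single mice (1 symbol per mouse number) for the log2 median signal of the array and for log2(signal + 16) of Myl7 and Tagln, with pitavastatin left of control and the mean and SD (n = 4) beside each group. The median signals of the groups overlap, Myl7 is high in pitavastatin 2 (10.29) and control 1 (8.29), and Tagln is highest in pitavastatin 2 (10.40).

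No transcript passed the test between pitavastatin and control hearts. Of 22518 tested probe sets, the brighter 50% of the array, 0 had an adjusted p under 0.05 by limma with Benjamini-Hochberg adjustment (0% called), and the smallest adjusted p was 1. At an unadjusted p under 0.05 there were 435 probe sets (1.93%), 231 of them higher (1.03%) and 204 lower (0.906%). The values of the 4 pitavastatin mice and the 4 control mice did not overlap in 380 probe sets (1.69%), with pitavastatin on top in 208 (0.924%) and below in 172 (0.764%). Unchanged probe sets would on average give a share of 0.05 at that threshold and of 0.0286 without overlap. Both observed shares are below these, so neither criterion marks a single gene out by itself. When each of 11229 genes was read from its brightest probe set, 50.9% stood above control, the median difference was 0.004, an unadjusted p under 0.05 was found for 107 higher (0.953%) and 111 lower genes (0.989%), and the groups did not overlap in 184 genes (1.64%), of which 95 were higher (0.846%) and 89 lower (0.793%). Between the 5th and the 95th percentile the differences of all probe sets ran only from −0.28 to 0.25. The 95% confidence interval of a difference, which is not adjusted for the number of probe sets, reached a median of 0.36 to either side, and the adjusted test needs larger differences than that. Every SE, interval and limma p of a difference uses a spread shared by all 20 arrays, including the 12 of the other statins. It can therefore be wider or narrower than the spread of the 8 mice whose values are shown. The count at the unadjusted threshold was 275 without control 1, 873 without control 2 and 841 without control 3, 60 (44 higher, 16 lower) after centring on the array median and 1020 with no filter, and 0 probe sets passed the adjusted threshold in any of these.

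The pitavastatin hearts resembled one another more than the control hearts did. The median over probe sets of the SD within a group was 0.17 for pitavastatin and 0.23 for control, and it was 0.19, 0.23 and 0.25 for pravastatin, rosuvastatin and atorvastatin. Differences were also narrower where signals were bright, with an SD over probe sets of 0.12 in the brightest and 0.20 in the dimmest of 3 equal bins of level. These are descriptions of the arrays and were not tested.

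**Figure D2:**
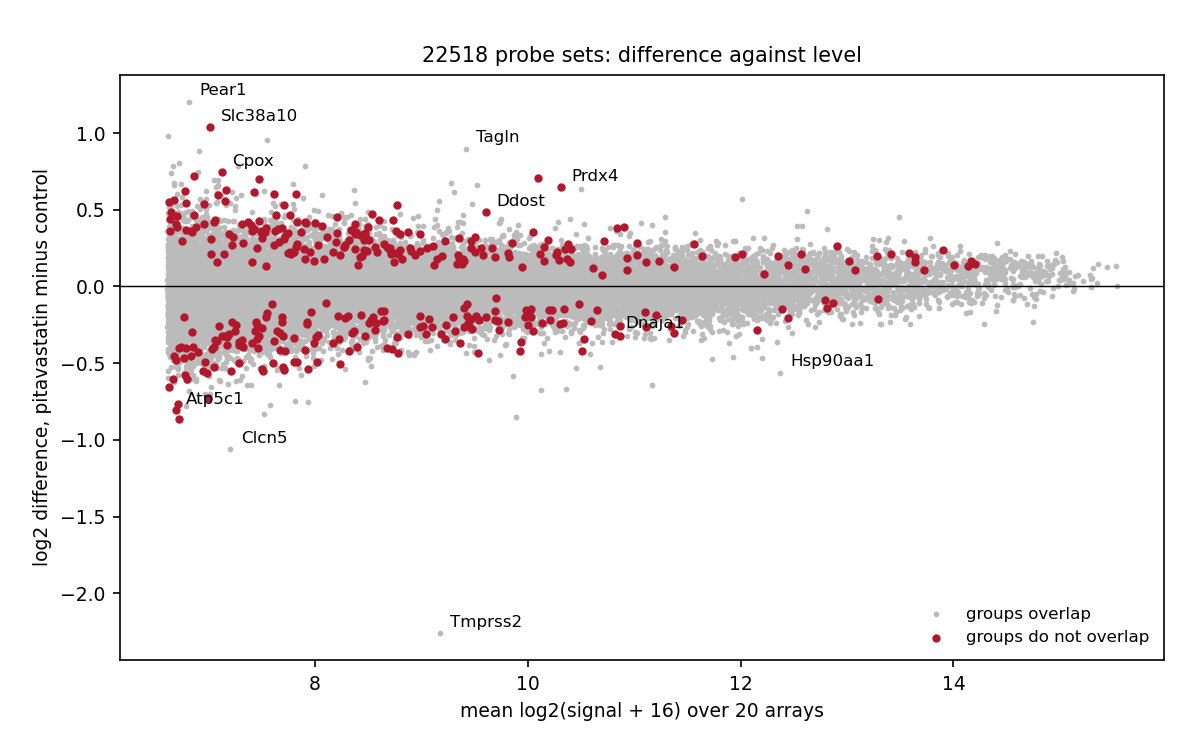
Each point is 1 of 22518 probe sets, placed by its mean log2(signal + 16) over 20 arrays (x) and its log2 difference, pitavastatin minus control (y), with the 380 whose groups do not overlap in red. The spread narrows with level, and 1 probe set of Tmprss2 (−2.26) lies outside the cloud without separating the groups.

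The genes of cholesterol synthesis stood at the control level. Of 16 measured genes from Hmgcs1 to Dhcr7, 8 were above and 8 below control, their median difference was −0.002, and single genes ran from −0.22 (Sc5d, a late desaturase of the sterol ring) to 0.14 (Pmvk, phosphomevalonate kinase). None of the 16 had an unadjusted p under 0.05, where 1.94% of all genes did. Hmgcs1, the enzyme just ahead of the step that statins block, had 12.94, 12.78, 12.84 and 12.81 in pitavastatin hearts and 12.90, 12.69, 12.92 and 12.90 in control hearts. The same was true of its other tested probe sets, and the 4 differences were −0.01, −0.06, −0.15 and 0.06. The 95% interval of the brightest ran from −0.23 to 0.22. Idi1, which makes the reactive isoprenoid unit, differed by 0.00 and −0.05 in its 2 tested probe sets, with an interval of −0.27 to 0.27 for the brighter. Sqle, the oxygenase that commits squalene to sterols, differed by 0.08 with a wider interval of −0.41 to 0.57.

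The genes that sense and move sterols were likewise divided, with 8 of 16 above control and a median of −0.010. Srebf2 had 8.42, 8.45, 7.86 and 8.07 in pitavastatin hearts and 7.50, 7.96, 7.97 and 7.58 in control hearts. Pitavastatin 3 lay among the controls and the other 3 above them, and the difference of 0.45 ± 0.19 (SE) had an unadjusted limma p of 0.0318 and an adjusted p of 1. A dimmer Srebf2 probe set differed by 0.22 ± 0.25 (SE), which was −0.02 without pitavastatin 2. Insig1, a target of SREBP2 that holds it back in the endoplasmic reticulum, differed by −0.17 with an interval of −0.45 to 0.11. Abca1, the exporter that cells raise when they hold excess sterol, had 9.85, 9.82, 9.63 and 9.89 in pitavastatin hearts and 10.35, 9.89, 9.84 and 10.22 in control hearts, a difference of −0.28 ± 0.13 (SE) with an unadjusted limma p of 0.0426. Stard4, a carrier of sterol between membranes and another SREBP2 target, differed by 0.26 and 0.02 in its 2 tested probe sets.

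Downstream branches of the mevalonate pathway gave small values too. Of 11 prenylation genes 6 were above control (median 0.037), and of 9 endothelial genes known to respond to statins in cell culture 6 (0.037). Nos3, the endothelial nitric oxide synthase, had 8.12, 8.26, 8.21 and 8.21 in pitavastatin hearts and 7.92, 7.88, 7.74 and 8.33 in control hearts. The values of controls 1 to 3 lay below all 4 pitavastatin values and that of control 4 above them, and the difference was 0.23 ± 0.17 (SE). Coenzyme Q synthesis had 9 of 11 genes above control with a median of 0.098, which was near 0 without control 1. In the dolichol and N-glycosylation list 12 of 21 genes were above control, and the median was 0.013, or −0.061 without control 1. Ddost, a subunit of the oligosaccharyltransferase that hands the dolichol-borne sugar to new proteins, stood out among them with 9.97, 9.98, 9.81 and 10.01 in pitavastatin hearts against 9.23, 9.50, 9.76 and 9.34 in control hearts. Its groups did not overlap, although pitavastatin 3 and control 3 nearly met. The difference of 0.49 (interval 0.20 to 0.78, and 0.41 to 0.59 over single leave-outs) rests on the only tested Ddost probe set and had an adjusted limma p of 1.

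The probe sets farthest from control mostly stood alone within their gene. Among the 50 with the smallest p, 42 had 1 gene symbol and the groups did not overlap in 31, of which 18 were higher and 13 lower; the 12 highest and 12 lowest of these named 24 genes. Of the 24 genes, 15 had another tested probe set. In 11 of these 15 at least 1 of the others lay on the opposite side of control, in 13 the probe set that named the gene was not its brightest, and in 0 did another probe set also separate the groups in the same direction. Among all genes with at least 2 tested probe sets, 229 had a separating one. In 222 of these it was the only one, and in 123 the probe sets lay on both sides of control. The naming probe sets were picked for a small p, which by itself favours others nearer to control.

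Cpox, an enzyme of heme synthesis, had the smallest p of all. Its dimmer tested probe set had 7.10, 7.30, 7.52 and 7.42 in pitavastatin hearts and 6.48, 6.63, 6.83 and 6.42 in control hearts and gave 0.75 ± 0.18 (SE), with an unadjusted limma p of 0.000429 and an adjusted p of 1. The brighter Cpox probe set had 10.63, 10.42, 10.31 and 10.30 in pitavastatin hearts and 11.14, 10.52, 10.45 and 10.77 in control hearts, which is −0.30 ± 0.17 (SE), or −0.16 without control 1. The 2 measures of the same gene therefore pointed opposite ways. Atp5c1, the gamma subunit of ATP synthase, gave −0.81 from a probe set at 6.12, 6.34, 6.49 and 6.28 in pitavastatin hearts and 7.30, 7.03, 6.97 and 7.15 in control hearts. Its bright probe set was at 15.04, 15.19, 14.98 and 15.18 against 14.82, 14.99, 15.01 and 15.10 and gave 0.11. Rnf214, a ring finger protein gene, separated the groups in both directions at once, with 0.59 from its dimmest tested probe set and −0.19 from its brightest.

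In several further genes the other probe sets were also nearer to control. Slc38a10, an amino acid transporter family gene, gave 1.04 from 1 dim probe set and −0.14 to 0.35 from 5 others, the brightest of which was at −0.03. Prdx4, a peroxiredoxin of the endoplasmic reticulum, gave 0.65 from 1 probe set and 0.09 and 0.13 from the others, so the direction was shared and the size was not. Ddx46 and Sf3a3, which act in the spliceosome, gave 0.70 and 0.63, and no other tested probe set of either differed by more than 0.10. For Son, a nuclear speckle protein gene, 5 of the 6 tested probe sets lay below control, from −0.05 to −0.42, and the brightest gave −0.32 ± 0.11 (SE).

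Genes measured by a single tested probe set could not be checked in this way. Pithd1, a gene for a proteasome-interacting domain protein, had 9.81, 9.67, 9.71 and 9.61 in pitavastatin hearts and 10.08, 10.08, 9.99 and 10.08 in control hearts. Both groups were tight and did not meet, with a difference of −0.36 (interval −0.55 to −0.17; −0.40 to −0.33 over single leave-outs) and an adjusted limma p of 1. Fhod1, a formin that assembles actin, had 7.67, 7.87, 7.80 and 7.91 in pitavastatin hearts and 6.69, 7.56, 7.15 and 7.38 in control hearts, a difference of 0.62 ± 0.20 (SE). Tbc1d9, from a family of Rab GTPase regulators, had 7.61, 7.64, 7.05 and 7.17 in pitavastatin hearts and 8.12, 7.91, 7.74 and 7.84 in control hearts, a difference of −0.54 ± 0.16 (SE).

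**Figure D3:**
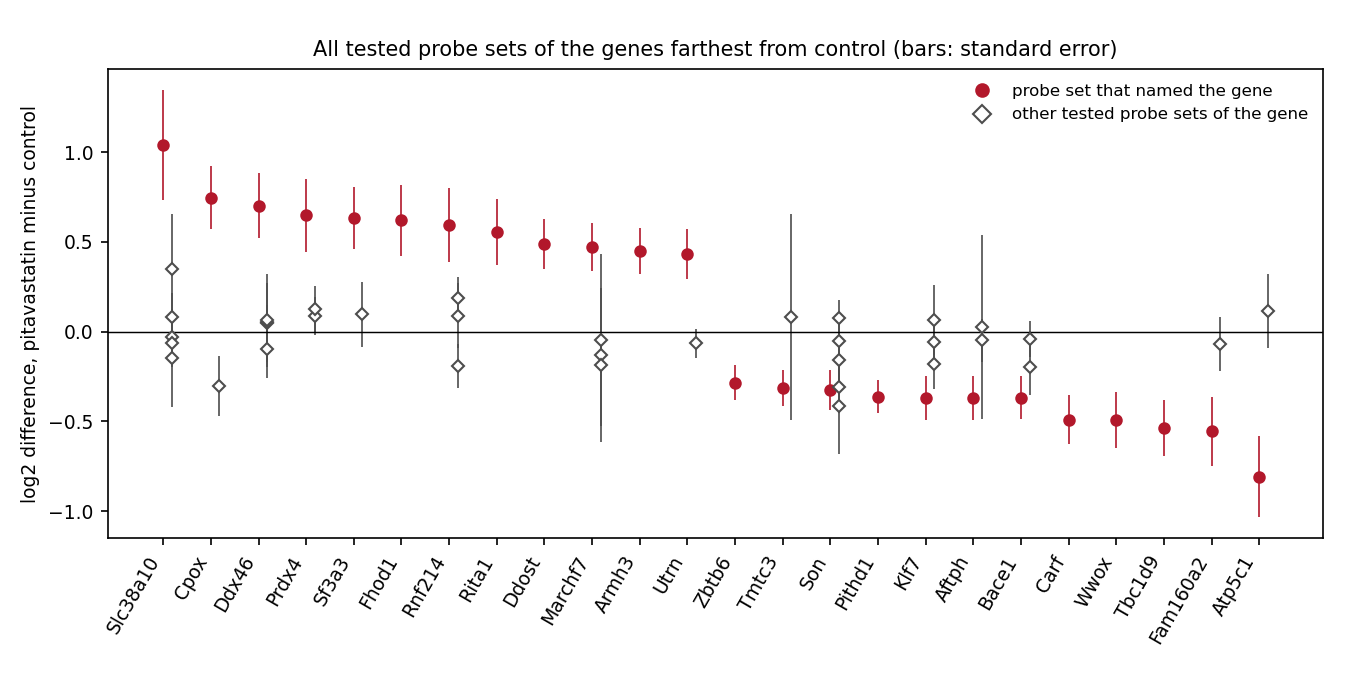
Log2 differences, pitavastatin minus control, with their standard errors, of all tested probe sets of the 24 genes named from the 50 smallest p. Red points are the probe sets that named the gene and open diamonds its others, most of which lie near 0.

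Across the array, probe sets of the same gene often differed in direction. Among 4766 genes with at least 2 tested probe sets, all of them lay on the same side of control in 2181 (45.8%). Of the 229 with a probe set that separated the groups, the share was 106 (46.3%). For 2886 genes with exactly 2, the directions matched in 56.7%, and the differences of the pair correlated at r = 0.16 across genes, or at 0.36 across the 959 genes where both were brighter than the median of the tested probe sets (63.2% in the same direction). Genes are not independent replicates, and both probe sets share the same 8 arrays.

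Only Ms4a6d and Bvht, 2 of the 4766 genes (0.042%), had at least 2 probe sets that separated the groups in the same direction and none on the other side. Ms4a6d, a membrane protein gene of macrophages, had 7.84, 7.98, 8.03 and 8.07 in pitavastatin hearts and 8.49, 8.09, 8.19 and 8.53 in control hearts in its brighter probe set (−0.34 ± 0.20, SE). The dimmer gave 6.99, 6.57, 6.72 and 6.99 against 7.59, 7.06, 7.18 and 7.07 (−0.41 ± 0.27, SE). In both, the gap between the highest pitavastatin and the lowest control mouse was small. Bvht, a long noncoding RNA known as Braveheart that mouse embryonic cells need to become heart cells, had 9.30, 9.46, 9.24 and 9.39 in pitavastatin hearts and 9.18, 8.80, 9.23 and 8.98 in control hearts (0.30 ± 0.17, SE). Its second probe set gave 9.23, 9.31, 9.27 and 9.33 against 9.20, 9.13, 9.14 and 8.86 (0.20 ± 0.12, SE). The number of such genes was 4 to 23 when 1 of the 8 arrays was left out.

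There were 4 probe sets that differed at least 2-fold (0.0178%), and these were chosen here for their size. The largest, in the membrane protease gene Tmprss2, had 7.57, 8.23, 7.63 and 8.04 in pitavastatin hearts and 8.63, 8.03, 11.29 and 12.56 in control hearts. Controls 3 and 4 lay far above the other 6 hearts, the difference was −2.26 ± 0.93 (SE), and in the 12 hearts of the other statins the same probe set ran from 7.30 to 12.33. The other 3 Tmprss2 probe sets were below the filter and gave 0.43, −0.33 and 0.03. Pear1, a receptor gene of platelets and endothelium, gave 1.21 from 1 probe set through a low control 3 and −0.03 and 0.05 from its other tested ones. Clcn5, a chloride and proton exchanger gene, gave −1.06 from 1 and 0.03 from the other.

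Most antigen presentation genes lay above control. MHC class I molecules show peptides from inside the cell to CD8+ T cells: a heavy chain (H2-K1 and H2-D1 in this strain) pairs with B2m, the immunoproteasome cuts the peptides, Tap1 and Tap2 pump them into the endoplasmic reticulum, and Tapbp helps to load them. Interferons raise most of these genes through short promoter elements. Of 14 class I and peptide loading genes 12 stood above control, with a median of 0.175 beside 0.004 for all genes, and all 4 measured immunoproteasome genes did, with a median of 0.292. None of these 18 separated the groups, and H2-K1 was the only one with an unadjusted p under 0.05. The mean level of the 14 class I genes was 10.36, 10.40, 10.25 and 10.24 in pitavastatin hearts and 10.11, 10.21, 10.16 and 10.20 in control hearts. The levels of the list thus did not overlap, by a margin of 0.03 log2 units. Among the 49 lists it was the only one with such a separation. For a single list, exact permutation of 4 against 4 mice gives a two-sided p of at least 0.0286. A single separated list among 49 is therefore not beyond chance, and the lists were not tested.

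The promoters of both heavy chain genes are shown because they carry the same copy of an interferon-type element, GAA and TGAAAC with any 1 base between them, searched on both strands in the 250 bases before the start of each gene. It occurs in 113 of 32851 such windows of the RefSeq promoter table (0.344%) and in 6 of the 20 genes of the class I and immunoproteasome lists that have a window: H2-K1, H2-D1, H2-M3, H2-Q4, H2-Q6 and H2-Q7. The motif was chosen after the values of these genes were seen, and H2-M3, which carries it, differed by −0.08. The stretches below are from GRCm38.p6, H2-K1 from chr17:34000348-34000597 on the minus strand and H2-D1 from chr17:35262844-35263093 on the plus strand, written 5′ to 3′ in the direction of the gene and ending at the base before its start, with the match, which is on the other strand, in capitals.
H2-K1: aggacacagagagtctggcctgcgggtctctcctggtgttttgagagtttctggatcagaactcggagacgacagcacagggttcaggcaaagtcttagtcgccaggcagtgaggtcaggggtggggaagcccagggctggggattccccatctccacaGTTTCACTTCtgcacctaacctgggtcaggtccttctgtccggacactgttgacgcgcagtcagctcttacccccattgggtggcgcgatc
H2-D1: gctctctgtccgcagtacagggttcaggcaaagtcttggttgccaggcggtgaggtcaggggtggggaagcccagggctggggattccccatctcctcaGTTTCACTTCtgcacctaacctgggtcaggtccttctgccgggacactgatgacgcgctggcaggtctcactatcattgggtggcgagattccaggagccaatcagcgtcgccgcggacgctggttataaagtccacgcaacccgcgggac
The matches begin 91 and 151 bases before the gene starts and read GTTTCACTTC in both. A match is a description of these letters, and whether any factor was bound there was not measured.

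H2-K1 had 11.27, 11.29, 11.12 and 10.93 in pitavastatin hearts and 10.54, 11.01, 10.89 and 10.76 in control hearts in its brightest probe set, a difference of 0.35 (interval 0.10 to 0.60; 0.26 to 0.42 over single leave-outs) with an unadjusted limma p of 0.00857 and an adjusted p of 1. Its other tested probe sets gave 0.18 and 0.78. For H2-D1 the 4 tested probe sets gave 0.27, 0.21, −0.14 and 0.15. Heavy chain genes are close copies of one another, and most of these probe sets are of the kind that can bind several of them, so the H2-K1 and H2-D1 signals cannot be fully told apart. The light chain B2m, which has no such copy, gave 0.19 in both of its probe sets, with 14.45, 14.50, 14.31 and 14.39 in pitavastatin hearts and 14.10, 14.32, 14.28 and 14.19 in control hearts.

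In several of these genes 2 control mice lay low. Psme1, which opens the proteasome for peptide release, had 12.73, 12.71, 12.70 and 12.73 in pitavastatin hearts and 12.09, 12.70, 12.74 and 12.39 in control hearts. Controls 2 and 3 matched the pitavastatin level, and controls 1 and 4 lay below it; the difference of 0.24 was 0.11 without control 1. Psmb8, a catalytic immunoproteasome subunit, repeated the pattern with 8.51, 8.50, 8.51 and 8.75 against 7.61, 8.82, 8.48 and 7.96, a difference of 0.35 that was 0.15 without control 1. So did Tapbp, with 12.93, 13.07, 13.04 and 12.99 against 12.60, 13.03, 13.02 and 12.57. Controls 1 and 4 were also the 2 brighter control arrays, and the part of brightness in the result was not tested beyond the scalings: the class I median was 0.139 after quantile normalization, 0.212 after centring on the array median and 0.140 without control 1. For the immunoproteasome the median was 0.127 without control 1.

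MHC class II genes, which present outside peptides and are expressed by macrophages, dendritic cells and B cells, showed the same mice. Of 7 genes 6 were above control with a median of 0.272, which was 0.112 without control 1 and 0.433 without control 2. Cd74, the invariant chain, had 12.07, 12.07, 12.18 and 11.80 in pitavastatin hearts and 11.22, 12.29, 11.94 and 11.51 in control hearts, so control 2 was the highest of all 8. Of 15 macrophage markers 9 were above control with a median of 0.035; Cd163, a scavenger receptor of resident macrophages, lay below it without overlap, at 8.63, 8.40, 8.59 and 8.59 against 9.22, 8.69, 8.74 and 8.79 (−0.31 ± 0.19, SE, or −0.19 without control 1). Of 14 T and B cell markers 3 were bright enough to be tested, and the brightest probe sets of Ighm, Ms4a1 and Ptprc differed by 0.42, 0.01 and −0.19. The other tested probe sets gave −0.06 and −0.38 for Ighm, 0.03 for Ms4a1 and −0.34 for Ptprc, whose brightest lay below control without overlap. In bulk tissue, fewer cells of a type and less RNA per cell cannot be told apart. Interferon response genes outside antigen presentation were divided, with 17 of 26 above control and a median of 0.100, or −0.016 without control 3; Xaf1 separated the groups (0.25 ± 0.14, SE), while Mx1 gave −0.27 and Rsad2 −0.21.

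**Figure D4:**
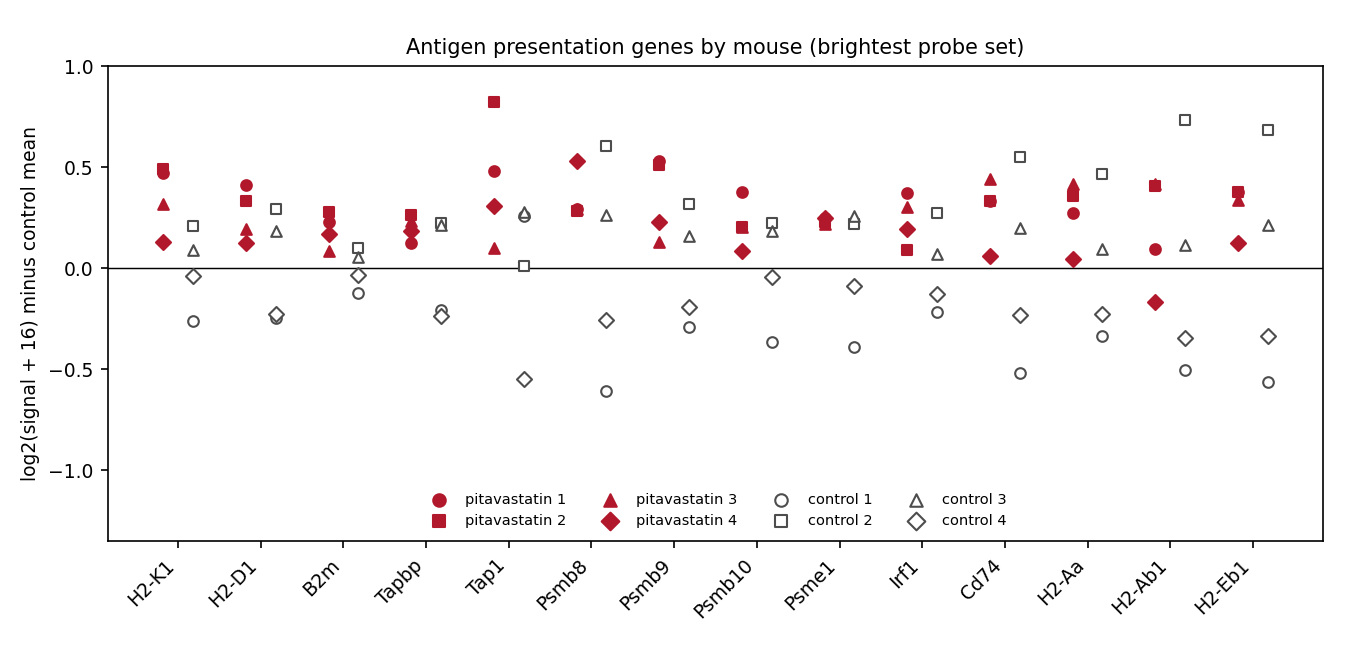
Log2(signal + 16) of 14 antigen presentation genes in each mouse, minus the mean of the 4 controls, with pitavastatin (red) left of control (open) and 1 symbol per mouse number. Of the 14 genes, control 1 is the lowest of the 8 mice in 12 and control 4 in 2, and the control lies below all 4 pitavastatin mice in 13 for control 1, 1 for control 2, 4 for control 3 and 14 for control 4.

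The genes of energy production mostly stood slightly above control. Heart muscle makes most of its ATP in mitochondria from fatty acids, and the transcripts of the respiratory chain are among the brightest on these arrays. Of 32 complex I subunits 31 were above control with a median of 0.125, of 38 subunits of complexes II to V 34 were (0.089), of 17 genes of the tricarboxylic acid cycle 16 (0.079), of 21 genes of fatty acid oxidation 15 (0.086) and of 16 glycolytic genes 13 (0.092). Only Ndufb7 of complex I separated the groups, at 14.11, 14.17, 14.12 and 14.20 against 13.88, 14.09, 14.10 and 13.98 (0.14 ± 0.15, SE), and none of the genes of these lists had an unadjusted p under 0.05. Cox6a2, the heart form of a cytochrome oxidase subunit, lay at the upper end of the complexes II to V list, whose highest difference was 0.23. It had 14.66, 14.86, 14.64 and 14.84 in pitavastatin hearts and 14.22, 14.64, 14.67 and 14.54 in control hearts (0.23 ± 0.24, SE). Control 1 was the lowest and the other controls lay near or within the pitavastatin range. Sarcomere proteins, with 16 of 19 above control (0.131), and cardiomyocyte markers, with 11 of 14 (0.118), stood as high, and gave 0.070 and 0.038 after quantile normalization.

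Genes of translation and protein breakdown also lay above control. All 26 measured cytosolic ribosomal protein genes were above control, with a median of 0.152 and a range of 0.02 to 0.32, as were 36 of 41 mitochondrial ribosomal (0.109) and 29 of 31 constitutive proteasome genes (0.096). Rplp0, a protein of the ribosomal stalk, had 13.62, 13.85, 13.73 and 13.73 in pitavastatin hearts and 12.78, 13.75, 13.66 and 13.46 in control hearts (0.32 ± 0.18, SE, or 0.11 without control 1). Rps18 was the only one of the 26 that separated the groups, at 13.84, 13.83, 13.81 and 13.83 against 13.52, 13.76, 13.70 and 13.71 (0.16 ± 0.10, SE), and its 2 other tested probe sets gave 0.17 and 0.23.

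These medians were smaller without control 1. The median then was 0.064 for complex I, 0.046 for complexes II to V, 0.017 for glycolysis, 0.076 for cytosolic and 0.028 for mitochondrial ribosomal proteins (25 of 41 above control) and 0.050 for the constitutive proteasome. With quantile normalization complexes II to V gave 0.015, with 23 of 38 above control, and complex I gave 0.059. The tricarboxylic acid cycle then gave 0.027, with 12 of 17 above control, and fatty acid oxidation 0.029, with 12 of 21. With the mean of all tested probe sets of a gene in place of the brightest, and without that normalization, fatty acid oxidation gave 0.038, with 12 of 21 above control. Genes of a list share the same arrays, so the number of genes on the same side of control is not a number of independent observations.

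**Figure D5:**
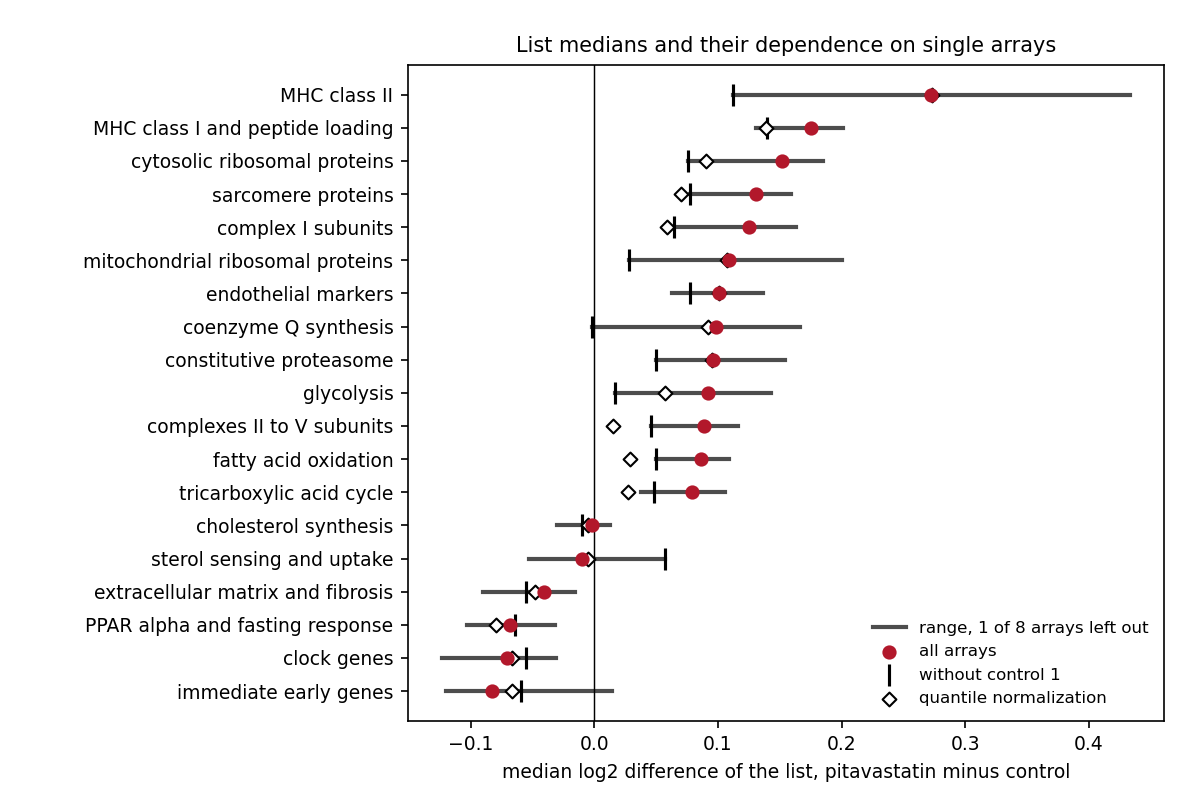
Median log2 difference, pitavastatin minus control, of 19 gene lists (red), its range when 1 of the 8 arrays is left out (bar), the value without control 1 (tick) and the value after quantile normalization (diamond). Medians of the energy, ribosomal and proteasome lists come closer to 0 without control 1, and the ranges of the 2 sterol lists span 0.

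Stress genes lay on both sides of control. Genes of endoplasmic reticulum stress had 16 of 21 above control with a median of 0.066, which was 0.018 without pitavastatin 2, and none separated the groups. Pdia4, a disulfide isomerase, gave 0.49 ± 0.33, Sdf2l1, a chaperone partner of the endoplasmic reticulum, 0.44 ± 0.27 and Ddit3, the transcription factor CHOP, 0.41 ± 0.20 (SE). Genes of oxidative stress defence had 17 of 23 above control with a median of 0.089, or 0.040 without control 1. The chaperone list was divided, with 8 of 16 genes above control and a median of 0.031 that was −0.022 after quantile normalization, and several of its heat shock members lay low. Dnaja1, a partner of the HSP70 chaperones, had 10.51, 10.48, 10.49 and 10.52 in pitavastatin hearts and 10.75, 10.82, 10.81 and 10.85 in control hearts. Both groups were tight and apart. The difference was −0.31 ± 0.14 (SE), with an unadjusted limma p of 0.0344 and an adjusted p of 1. This SE comes from the spread shared by all 20 arrays and is not that of these 8 values. The other tested Dnaja1 probe sets gave −0.15 and −0.12 with overlapping groups. Dnajb1, a second such partner, gave −0.29 without overlap and −0.16 with it. Hsp90aa1, the stress-inducible form of HSP90, had 12.37, 11.96, 11.86 and 11.81 in pitavastatin hearts and 12.86, 12.54, 12.26 and 12.58 in control hearts, which is −0.56 (interval −0.97 to −0.15), beside −0.13 and −0.08 from dimmer probe sets. Hspa1b, an inducible HSP70, gave −0.52 ± 0.31 (SE).

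Immediate early genes, which answer within minutes to handling, hormones and growth signals, had 5 of 17 above control and a median of −0.083, which was 0.014 without pitavastatin 3. Fos had 8.45, 7.37, 7.01 and 7.69 in pitavastatin hearts and 8.60, 8.47, 8.55 and 7.90 in control hearts (−0.76 ± 0.39, SE), and Egr1 gave −0.52 ± 0.35 (SE). Genes that PPAR alpha and fasting raise had 5 of 15 above control, with a median of −0.068. Angptl4, an inhibitor of lipoprotein lipase, had 8.24, 8.20, 6.45 and 7.71 in pitavastatin hearts and 9.17, 8.99, 7.30 and 8.12 in control hearts (−0.75 ± 0.43, SE). The difference was −0.49 without control 1, −0.35 without pitavastatin 3 and −1.11 without control 3. Mouse 3 was lowest and mice 1 and 2 highest in both groups. Acot1, an acyl-CoA thioesterase, gave −0.44 ± 0.22 (SE), or −0.23 without control 1, and Pdk4, which shuts glucose carbon out of the mitochondria, −0.23 ± 0.20 (SE). Clock genes had 4 of 15 above control (median −0.071) and glucocorticoid response genes 4 of 17 (−0.066, or 0.025 without control 2). Dbp, a clock output gene, ran as 10.15, 10.88, 11.37 and 11.58 in pitavastatin mice 1 to 4 and 10.18, 10.52, 10.53 and 11.14 in control mice 1 to 4. The hour at which each mouse was killed is not given in the sources used here.

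Most endothelial markers lay above control. Of 15 endothelial markers 13 were above control with a median of 0.101, and 2 of these genes separated the groups, which 0.846% of all genes did in this direction. Pecam1, the junction protein CD31, had 8.91, 9.21, 8.84 and 8.93 in pitavastatin hearts and 8.16, 8.83, 8.65 and 8.81 in control hearts. The groups nearly touched, and the difference was 0.36 ± 0.15 (SE) with an unadjusted limma p of 0.0245 and an adjusted p of 1, or 0.21 without control 1. Egfl7, a secreted factor of endothelial cells, gave 0.26 and 0.18 from its 2 brighter probe sets, both without overlap, and −0.08 and −0.04 from its 2 dimmer ones. Smooth muscle and pericyte markers had 8 of 12 above control, with a median of 0.084 that was −0.035 without control 2. Tagln, which binds actin in smooth muscle cells, had 9.46, 10.40, 9.11 and 10.06 in pitavastatin hearts and 8.71, 8.57, 9.28 and 8.88 in control hearts. Pitavastatin 1, 2 and 4 lay above all controls and pitavastatin 3 below control 3. The difference of 0.90 (interval 0.36 to 1.44) had an unadjusted limma p of 0.0024 and an adjusted p of 1, and it was 0.69 without pitavastatin 2, the sample with the most atrial RNA. Tpm2, a tropomyosin, gave 0.41, 0.44, 0.18 and 0.19 from its 4 probe sets, of which the brighter pair gave 0.25 and 0.28 without pitavastatin 2. Acta2 and Myh11, other smooth muscle markers, gave 0.22 ± 0.28 and 0.06 ± 0.21 (SE) by their brightest probe sets.

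Fibroblast markers (6 of 14 above control, median −0.025) and extracellular matrix genes (10 of 33, −0.041) lay slightly below control; the fibroblast median was 0.012 after centring on the array median. Col6a3, a chain of collagen VI, gave −0.43 ± 0.18 (SE), mostly through pitavastatin 4 at 8.08 beside 8.77 to 9.23 in the other 3. Col1a1 gave −0.23 and −0.10 from its 2 tested probe sets. Stress markers of cardiomyocytes were level, with Nppb at 0.10 ± 0.21 and Myh7 at 0.11 ± 0.18 (SE), and Nppa, which atria and stressed ventricles make, at 0.37 ± 0.25 (SE) with its highest value in pitavastatin 2, without which it was 0.24.

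A few transcripts passed the test when pitavastatin hearts were set against the hearts of the other statins. That comparison is pitavastatin minus the mean of pravastatin, rosuvastatin and atorvastatin. The control mean is no part of the difference, but the 4 control arrays enter the shared estimate of the spread. The other side has 12 mice, which narrows the error, and the doses differ. By limma, 5 of 22518 probe sets had an adjusted p under 0.05 (0.0222%), all lower under pitavastatin, and 2979 an unadjusted p under 0.05 (13.2%), of which 1224 were higher (5.44%) and 1755 lower (7.79%). With the replicate number as a block 183 were called, 8 higher and 175 lower, and among them were the 5. Without the control arrays in the fit 112 were called, 11 higher and 101 lower, again with the 5 among them. The 5 lie in Med1, Zfp516, Rhobtb1, Wipi1 and Tbc1d9 and were named after their values were seen. Tbc1d9 fell by 0.76 ± 0.13 (SE; limma adjusted p = 0.0425), with means of 7.37 under pitavastatin, 8.19, 8.13 and 8.06 under pravastatin, rosuvastatin and atorvastatin, and 7.90 in controls. Rhobtb1 fell by 0.70 ± 0.12 (SE; limma adjusted p = 0.0379), with a mean of 11.60 under pitavastatin beside 12.06, 12.32 and 12.52 under the same 3 statins and 12.00 in controls. Its second probe set gave −0.38. Zfp516, a zinc finger gene with 1 tested probe set, fell by 0.47 ± 0.07 (SE; limma adjusted p = 0.016), with 9.14 beside 9.69, 9.61, 9.53 and 9.42 in the same order of groups.

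For Med1, a Mediator subunit that nuclear receptors bind, the called probe set had a mean of 9.63 under pitavastatin, 10.49, 10.50 and 10.18 under the other statins and 9.70 in controls. Pitavastatin thus lay at the control level there, and the other 4 tested Med1 probe sets gave −0.01, −0.10, 0.26 and 0.28 in this comparison. The call in Wipi1, an autophagy gene, also rested on 1 probe set (−0.72), the other 4 giving −0.02, 0.12, −0.08 and −0.11. Centring on the array median moved the median of all probe sets by −0.155 and left 0 calls, with 1278 probe sets at an unadjusted p under 0.05. No call was left without pitavastatin 2 or without pitavastatin 4, there were 10 without rosuvastatin 2 and 44 without atorvastatin 2, and 1 to 4 without each of the other 12 statin arrays.

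Against the other statins the energy and ribosomal genes stood above again, with all 32 complex I genes (median 0.212), 36 of 38 of complexes II to V (0.217) and all 26 cytosolic ribosomal genes (0.204), beside 54.6% of all genes and a median of 0.023. Quantile normalization gave 0.079, 0.046 and 0.099 for these, and centring on the array median gave 0.057, 0.062 and 0.049. The log2 median signal of the other statin arrays ran from 5.38 in rosuvastatin 3 to 7.17 in atorvastatin 2. It ran from 6.33 to 6.90 in the pitavastatin and control arrays, and the part of brightness was not tested beyond these scalings. Each group set against the same 4 controls gave complex I medians of 0.125 for pitavastatin and of −0.100, −0.102 and −0.114 for pravastatin, rosuvastatin and atorvastatin, values that share their control arrays. Immediate early genes lay below the other statins in 16 of 17 (median −0.232), and clock genes in 12 of 15 (−0.186).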

How the data were processed

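The deposited values are a signal intensity per probe set on a linear scale, which the authors computed with MAS5 per the submitters' processing notes; no version is given. On every array the trimmed mean of the deposited intensity was 500, so the arrays had been scaled alike. The 64 control probe sets were left out, 16 was added before log2, and the brighter 50% of 45037 probe sets (signal above 81.8) were tested. Per the platform annotation 34945 probe sets had 1 gene symbol, 932 several and 9160 none, and 34741 matched the RefSeq gene table. Only those with 1 symbol were named, for 11229 tested genes.

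The test was limma's moderated linear model (version 3.58.1, R 4.3.3), with 1 mean per group over all 20 arrays, an intensity trend in the prior (degrees of freedom: residual 15, prior 4.23) and Benjamini-Hochberg adjustment over all tested probe sets, at 0.05. Intervals are 95% intervals of that fit. Array measures were compared by exact permutation of mice in Python 3.11.15 with SciPy 1.17.1. Each array is 1 mouse. The number of arrays limits the precision.

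The members and gene lists were chosen with earlier results of these data known, so 49 lists are described by counts and medians of the brightest probe set of each gene, with no test. Named were the 12 highest and 12 lowest differences without overlap among the 50 smallest p, genes with at least 2 probe sets that separated the groups, up to 4 genes of each list by p, and Hmgcs1, Idi1, Sqle and Insig1; other genes were named after their values were seen. A few genes that the rule names are left out here. Same-numbered pitavastatin and control mice deviated together (correlations of 0.18, 0.13, 0.319 and 0.436, beside −0.381 to 0.308 for other-numbered pairs). The labels do not say what the number marks. Since every same-numbered correlation was over 0.1, the numbers were treated as pairs in the fit with a block. Other settings were quantile normalization, median centring, pseudocounts of 1 and 64, no filter, the brightest 30%, no trend, array weights, the median signal as covariate, 1 probe set per gene, fits of fewer groups, and leaving out each array.

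The fit was tested on simulated data with known changes. Over 20 draws, changes of 1.25-, 1.5-, 2- and 3-fold were called in 3.9%, 31%, 68.9% and 86% of cases. There were 5.35 false calls a draw on average. The noise was drawn independently for each probe set, while the real arrays share differences in brightness. These shares may therefore not hold for the real arrays.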

Additional observations from a re-analysis of the deposited data

Results flagged for a closer look

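In 6 of 158 groups of 4 mice, 1 mouse lay apart by Dixon's criterion at the 95% level, where chance gives about 1 in 20 groups. The level of fetal and stress genes of cardiomyocytes was 12.65 in pitavastatin 2, beside 11.97 to 12.08 in the other pitavastatin mice. The level of calcium handling genes was 12.75 in pitavastatin 3, beside 12.68 to 12.69. Among controls, the level of smooth muscle and pericyte markers was 10.1 in control 2, beside 10.42 to 10.46. The 18S control signal was 8.88 in control 4, beside 8.76 to 8.77. Pithd1 was at 9.99 in control 3, beside 10.08 in the other controls, and Hmgcs1 at 12.69 in control 2, beside 12.90 to 12.92.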

How the results depend on the processing

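No setting called a probe set between pitavastatin and control, including the replicate block, which gave 0 calls and 635 probe sets at an unadjusted p under 0.05. That count, 435 as reported, was 226 with 1 probe set per gene, 263 in the brightest 30%, 60 (44 higher, 16 lower) with median centring, 779 with the median signal as covariate, 1020 with no filter, and 275 to 873 without single arrays. Against the other statins the 5 calls became 3 with 1 probe set per gene, 1374 with array weights, 17 in the brightest 30%, 0 with median centring, 254 with the covariate, 112 in the 16 statin arrays alone, 17 with quantile normalization, 183 with the replicate block, and 0 to 44 without single arrays. The 2979 at an unadjusted p under 0.05 became 1791 with 1 probe set per gene, 5822 with array weights, 1278 with median centring, 4627 with the covariate, and 1896 to 3707 without single arrays. Fewer probe sets are tested with 1 per gene or the brightest 30%, and more with no filter (45037 in place of 22518). For the other settings the cause was not tested.

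The 2 genes with agreeing probe sets became 1 with quantile normalization and 4 to 23 without single arrays, where fewer mice have to stand apart. Hmgcs1 turned to 0.03 with median centring. Without single arrays, differences ran from −0.06 to 0.02 for Hmgcs1, −0.08 to 0.06 for Idi1 and −0.02 to 0.22 for Sqle; list medians from −0.037 to 0.045 for prenylation, −0.016 to 0.155 for interferon response, −0.009 to 0.144 for heme and −0.106 to 0.083 for atrophy; and array differences from −0.116 to 0.0725 (log2 median signal), −1.11 to 0.865 (percent of dark probe sets), −0.0689 to 0.0685 (interquartile range), −0.0177 to 0.0409 (Gapdh ratio) and −0.107 to 0.0117 (Actb ratio).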
